A study of Homo sapiens with 12 samples.

Results

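The HERV3 family of endogenous retroviruses was followed in THP-1 cells through 2 of the 45 repeat elements in the count tables. HERV3 is the internal part of the provirus, and LTR4 is the long terminal repeat that borders it. Both were taken by element name from the tables of day 4 and day 7, with plus and minus columns kept apart, which gave 4 of 90 features. The family was picked with its higher minus strand counts under the SETDB1 guide already known from these libraries. For the 4 features, values that compare the guides, or the SETDB1 cells between days, are therefore descriptions, and nothing is read from the calls given beside them.

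THP-1 is a widely used human cell line, derived from an acute monocytic leukaemia. The cells had been spin-transduced with SETDB1 sgRNA 9 or with a non-targeting sgRNA, so the controls were transduced too, and every group was selected with 1 µg/ml puromycin from 48 h on. Collection at day 4 or day 7 gave 4 groups of 3 total RNA libraries. The titles name sgRNA 9 alone and the design text sgRNAs 6 and 9, and grouping was done by title. The labels name no nuclease and do not say whether the cells were a pool or a clone, or whether replicates came from separate cultures, so the spread between libraries may be technical. Table totals lay between 27388 and 58916 counts, with means of 50619 ± 7207 (SETDB1) and 30587 ± 4110 (non-targeting) at day 4 and of 49914 ± 9993 and 34796 ± 7531 at day 7 (SD, n = 3). The tables hold repeat elements only, with 0 of 6 monocyte markers and no SETDB1 row, so neither the cell type nor the depletion was checked here.

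A provirus of this kind carries the internal genes between a pair of long terminal repeats, which hold promoter and polyadenylation signals. HERV3, also called HERV-R, is a class I family, related to gammaretroviruses, and ERV3-1 on human chromosome 7 is its known copy with an open envelope reading frame. SETDB1 methylates lysine 9 of histone H3 and is brought to many endogenous retroviruses by KRAB zinc finger proteins through TRIM28, where the mark keeps them silent.

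The start windows that RefSeq gives for ERV3-1 are shown as sequence context for a HERV3 copy. Neither window was shown here to be the promoter of the provirus. Each spans 250 bases before and 50 bases after a start, on the minus strand of GRCh38.p14. The downstream window is chr7:64999393-64999692 and the upstream one chr7:65006638-65006937. Capitals mark TATAAA, the core of a TATA box, and AATAAA, the polyadenylation signal.
downstream start: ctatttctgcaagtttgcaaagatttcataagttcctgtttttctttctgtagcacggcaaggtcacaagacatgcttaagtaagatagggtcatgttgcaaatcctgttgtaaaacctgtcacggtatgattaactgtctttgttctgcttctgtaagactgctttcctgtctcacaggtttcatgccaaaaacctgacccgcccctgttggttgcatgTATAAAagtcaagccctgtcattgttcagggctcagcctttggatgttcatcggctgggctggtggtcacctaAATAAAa
upstream start: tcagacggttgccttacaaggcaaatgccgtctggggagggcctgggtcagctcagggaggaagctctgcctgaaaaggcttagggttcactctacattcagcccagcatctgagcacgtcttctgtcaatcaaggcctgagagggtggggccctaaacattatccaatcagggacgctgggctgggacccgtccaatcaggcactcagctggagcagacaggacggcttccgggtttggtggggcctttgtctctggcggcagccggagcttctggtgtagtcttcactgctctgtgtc
In the downstream window TATAAA began 30 bases before the start and AATAAA 43 bases after it. Neither set of letters was found in the upstream window on either strand. On either strand, TATAAA was present in 11.5% and AATAAA in 17.4% of the 35116 RefSeq windows of this length, and both on the strand of the gene in 1.57%.

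The downstream window was repeated at the same locus. A second copy with 89.7% identity over all 300 bases, in the same direction, lay at chr7:64990373-64990672, inside exon 1 of a ZNF117 transcript (GENCODE 29, GRCh38). The copies were 9020 bases apart, and the coding sequence of ERV3-1, chr7:64991215-64993026, lay between them. A second copy of the upstream window was not looked for. That window resembled the start windows of 56 other genes, 48 of them named ZNF, against 3 other genes for the downstream window (blastn, e-value limit 1e-5). In the same kind of search, the downstream window matched transcripts of 10 genes (GENCODE 29). For 3 of these the match covered 180 bases or more, ZNF117 among them. Neither the tables nor the reference holds an LTR4 model or the positions of counted reads. The counts are thus sums over an unstated set of copies, and these windows are given as context, not as their source. ERV3-1 lies on the minus strand of the genome, but whether the minus columns refer to the genome or to the element could not be learnt from the labels or headers.

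**Figure D1:**
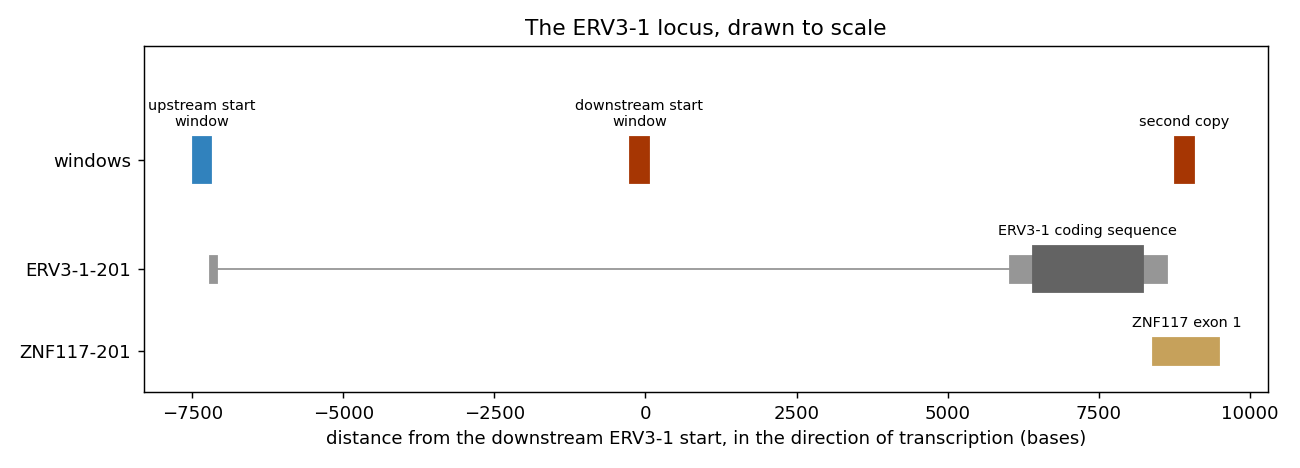
Map of the ERV3-1 locus by distance in bases from its downstream start, in the direction of transcription. The red boxes are the repeated window and its second copy, 9020 bases apart, with the ERV3-1 coding sequence (dark grey) between them.

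HERV3 on the minus strand was higher with the SETDB1 guide at both days, more so at day 7. At day 4 the non-targeting libraries held 218, 278 and 188 counts and the SETDB1 libraries 530, 577 and 788 (replicates 1 to 3). At day 7 they held 268, 250 and 203 counts against 1658, 2175 and 1712. Every SETDB1 library lay above every non-targeting one, and the SETDB1 libraries of day 7 lay above all others. These are raw counts, and at day 4 every SETDB1 table total, 45911 or more, also lay above every non-targeting one, 35293 or less. How many features separate in raw counts was not counted. After scaling between libraries the arms stayed apart, SETDB1 higher, as for 11.4% of all features at day 4 and 31.4% at day 7.

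Levels are given as CPM, in which the counts of the 45 elements are brought to a fixed total and then scaled between libraries, so they are relative to the other repeats. HERV3 minus strand stood at 7238 ± 1599 CPM in non-targeting and 12970 ± 1883 CPM in SETDB1 cells at day 4 (SD, n = 3), a log2 change of 0.84 ± 0.15 (SE, edgeR) or 1.79-fold. At day 7 it stood at 7157 ± 228 and 36427 ± 4468 CPM, a log2 change of 2.35 ± 0.15 or 5.09-fold. From the 20th and 21st highest of 70 tested features in the non-targeting cells at days 4 and 7, it moved to the 15th in SETDB1 cells at day 4 and the 6th at day 7. In these bulk libraries, more cells with the RNA and more RNA per cell cannot be told apart.

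LTR4 on the minus strand was higher with the SETDB1 guide in the same groups as the internal part. Its counts were 63, 70 and 47 in the non-targeting and 145, 198 and 262 in the SETDB1 libraries at day 4, and 74, 95 and 58 against 558, 744 and 614 at day 7. The groups did not overlap at either day, in counts or in CPM, and SETDB1 replicate 1 was the lowest of its group at day 4. Non-overlap in CPM, as higher, held for 11.4% of all features at day 4 and 31.4% at day 7. The level went from 1897 ± 358 to 4149 ± 1028 CPM at day 4 and from 2254 ± 476 to 12562 ± 1154 CPM at day 7 (SD, n = 3). These are log2 changes of 1.13 ± 0.19 and 2.48 ± 0.18 (SE, edgeR), or 2.18-fold and 5.56-fold. Element lengths are not in the tables, so LTR4 and HERV3 levels are not compared with each other.

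**Figure D2:**
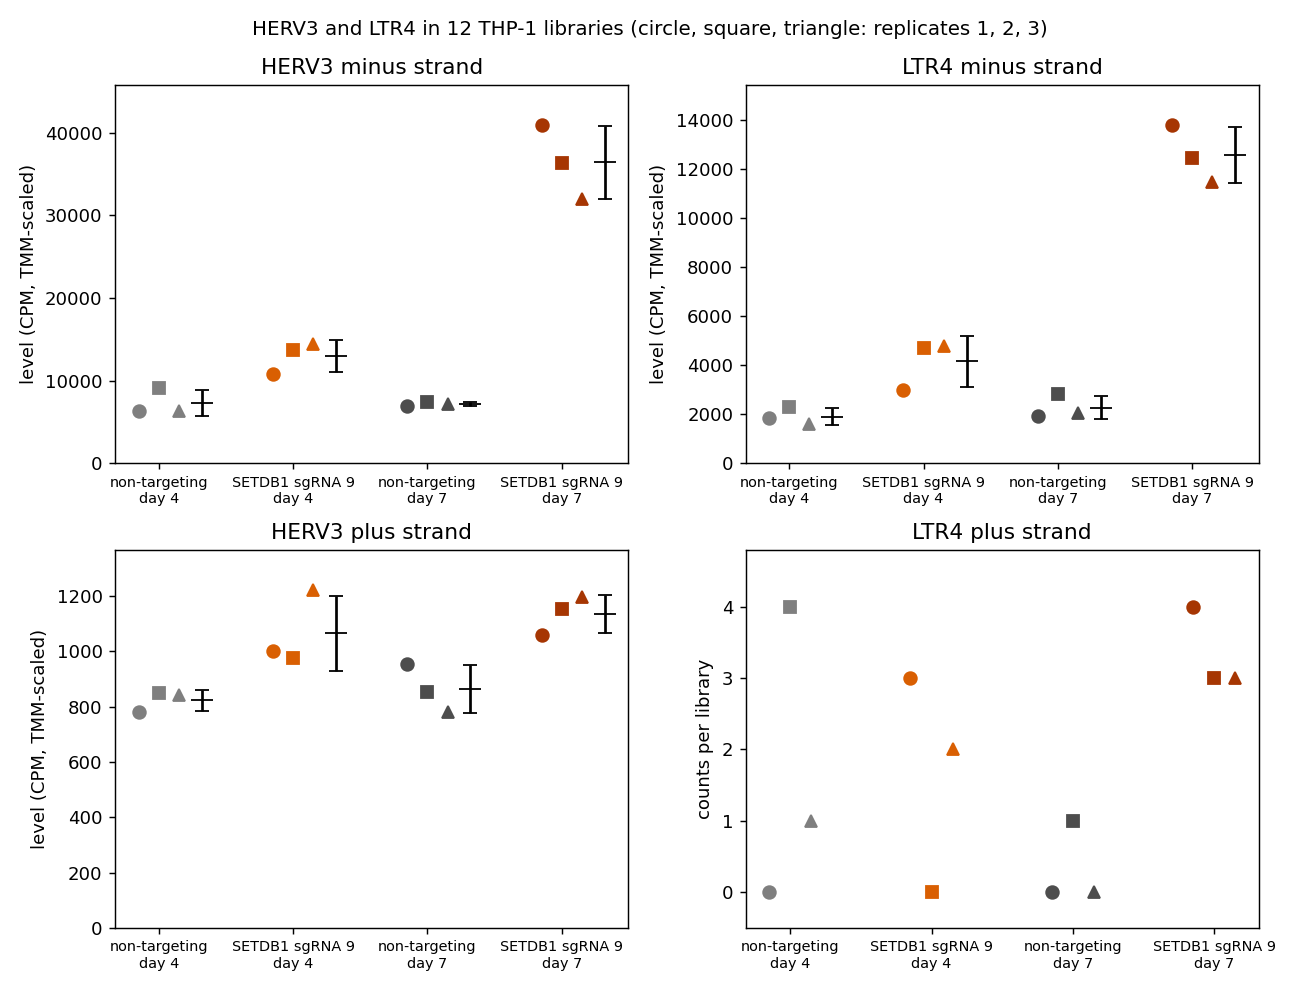
Level of each member by library (CPM, y axes from 0; for LTR4 plus strand, raw counts), with mean ± SD beside the groups of 3 where CPM is drawn. HERV3 and LTR4 minus strands are highest in the 3 SETDB1 libraries of day 7, while HERV3 plus strand stays between 780 and 1222 CPM in all 12 libraries.

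The plus strands showed far smaller values. HERV3 plus strand had 27, 26 and 25 counts in the non-targeting and 49, 41 and 67 in the SETDB1 libraries at day 4, and 37, 29 and 22 against 43, 69 and 64 at day 7. The groups did not overlap at either day, in counts or in CPM, but the distance between them was small. In CPM, 11.4% of all features were likewise apart and higher at day 4, and 31.4% at day 7. Levels were 824 ± 38 and 1066 ± 136 CPM at day 4 and 863 ± 87 and 1137 ± 69 CPM at day 7 (SD, n = 3), with log2 changes of 0.38 ± 0.21 and 0.39 ± 0.21 (SE). In unscaled counts, where the median of all tested features was itself 0.65 at day 4 and 0.76 at day 7, these changes became 1.01 and 1.00. LTR4 plus strand was almost empty, with 0, 4 and 1 counts in the non-targeting and 3, 0 and 2 in the SETDB1 libraries at day 4, and 0, 1 and 0 against 4, 3 and 3 at day 7. Its groups overlapped at day 4, and at day 7 the SETDB1 libraries lay above the non-targeting ones. It did not pass the filter on low counts, so 3 of the 4 member features entered the fit. Fitted without the filter, it changed by -0.62 ± 1.03 at day 4 and by 2.26 ± 1.29 at day 7 (log2, SE), values that rest on 10 counts and 11 counts.

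Of these 3, HERV3 and LTR4 minus strands passed the threshold as higher at day 4 and at day 7, and HERV3 plus strand at neither (edgeR quasi-likelihood, Benjamini-Hochberg over 70 features). Over all features 15.7% were called higher at day 4 and 30% at day 7. In either direction these were 24.3% and 55.7%. The family was chosen on that contrast. All 3 tested members were non-overlapping and higher in CPM at both days, as were 11.4% of all features at day 4 and 31.4% at day 7. The day 4 calls over all features, 17 of 70, fell to 10 without SETDB1 sgRNA 9 day 4 replicate 3, where HERV3 and LTR4 minus strands still passed.

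**Figure D3:**
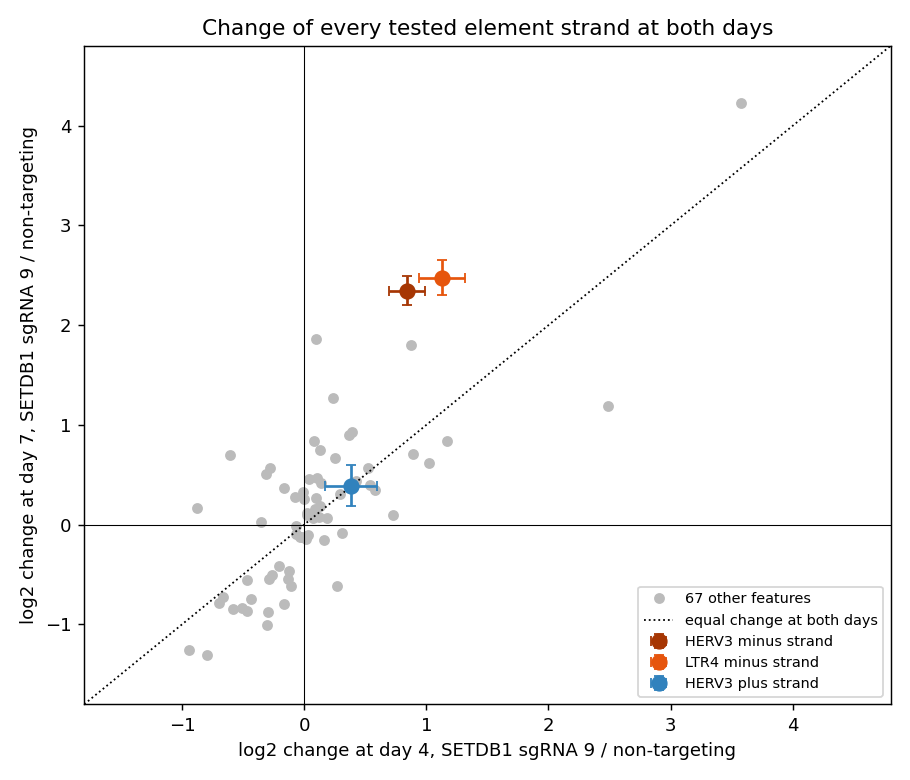
Log2 change with SETDB1 sgRNA 9 at day 4 (x axis) against day 7 (y axis) for the 70 tested features, members with SE bars. HERV3 and LTR4 minus strands lie well above the dotted line of equal change, at 0.84 and 1.13 on the x axis and 2.35 and 2.48 on the y axis, and HERV3 plus strand lies on it.

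In the SETDB1 cells, the minus strands of both elements stood higher at the later day, by 1.49 ± 0.14 for HERV3 and 1.60 ± 0.16 for LTR4 (log2, SE), or 2.81-fold and 3.02-fold. The libraries of the days did not overlap for either. HERV3 plus strand changed by 0.09 ± 0.19, and its libraries overlapped between the days. Both minus strands were called higher at day 7 in this contrast, as were 11.4% of all features, and 20% of all features were non-overlapping and higher. Features called in either direction came to 12.9%, or 9, and to 24 once non-targeting day 4 replicate 2 was dropped from the fit.

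The non-targeting cells gave a comparison on which the family had not itself been chosen. The comparison is not independent of that choice, since its libraries are the controls of the guide contrasts at both days. There, no member passed the test between day 4 and day 7. HERV3 minus strand changed by -0.02 ± 0.15 (log2, SE; edgeR adjusted p = 0.948), HERV3 plus strand by 0.08 ± 0.23 (adjusted p = 0.913) and LTR4 minus strand by 0.25 ± 0.21 (adjusted p = 0.746). The libraries of the days overlapped for all 3. Among the 70 features 5.71% were called, or 4, 12.9% had an unadjusted p under 0.05, or 9, and 18.6% did not overlap in either direction. DESeq2 called 9 features, and leaving out any single non-targeting library left 0 to 2 edgeR calls. No member was among the calls in any of these fits.

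The effect of the guide was larger at day 7 than at day 4 by 1.504 ± 0.208 for HERV3 and by 1.349 ± 0.261 for LTR4 on the minus strands, and by 0.01 ± 0.30 for HERV3 on the plus strand (log2, SE). Over all features 5.71% passed this comparison, and 2.86%, or 2, passed as larger at day 7. Those 2 were the minus strand members, and since the family was chosen with this difference known, nothing is read from that.

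Strand shares do not depend on scaling between libraries. HERV3 counts were on the minus strand for 88.3% to 91.4% in the 3 non-targeting libraries of day 4, with a mean of 89.6% ± 1.7, and for 91.5% to 93.4% in the SETDB1 libraries, with a mean of 92.4% ± 0.9 (SD, n = 3). At day 7 the shares were 89.2% ± 1.2 and 96.9% ± 0.5 (SD, n = 3), with all SETDB1 libraries above 96%. The groups did not overlap at either day, although at day 4 the highest non-targeting share, 91.4%, almost reached the lowest SETDB1 share, 91.5%. How many other elements separate the arms by strand share was not counted, so nothing particular to HERV3 is read from this. The share of all table counts on the minus strand was 70.5% ± 2.2 in non-targeting and 71.0% ± 4.3 in SETDB1 libraries at day 4, and 74.6% ± 0.7 and 69.9% ± 1.4 at day 7 (SD, n = 3).

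LTR4 was on the minus strand almost throughout. Its mean shares were 97.5% ± 2.7 and 99.1% ± 1.0 at day 4 and 99.7% ± 0.6 and 99.5% ± 0.2 at day 7 in non-targeting and SETDB1 libraries (SD, n = 3). These groups overlapped at both days. In the 4 libraries with no plus count the limit that 0 counts allow was a plus share of 4.76% of 63 counts, 1.52% of 198, 4.05% of 74 and 5.17% of 58, for counting error only. This limit is 3 counts over the total, an approximate 95% upper bound. The Wilson intervals drawn for the same libraries allow a slightly larger plus share. The plus strand had 21 counts in all 12 libraries, which leaves its changes with wide errors.

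The ratio of LTR4 to HERV3 counts on the minus strand asks whether the repeat and the internal part moved by the same amount within a library. It was 0.289, 0.252 and 0.250 in the non-targeting and 0.274, 0.343 and 0.332 in the SETDB1 libraries at day 4. At day 7 it was 0.276, 0.380 and 0.286 against 0.337, 0.342 and 0.359. The arms overlapped at both days. The log2 ratio differed by 0.26 at day 4 and by 0.15 at day 7 between the group means, where the SD within the groups was 0.12 and 0.18 at day 4 and 0.25 and 0.05 at day 7 (non-targeting and SETDB1, n = 3). The day 7 difference moved to 0.069, 0.299 and 0.094 without non-targeting day 7 replicate 1, 2 and 3, and to 0.28 with both strands summed. Over all 12 libraries the ratio lay between 0.250 and 0.380, while HERV3 minus strand counts lay between 188 and 2175.

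**Figure D4:**
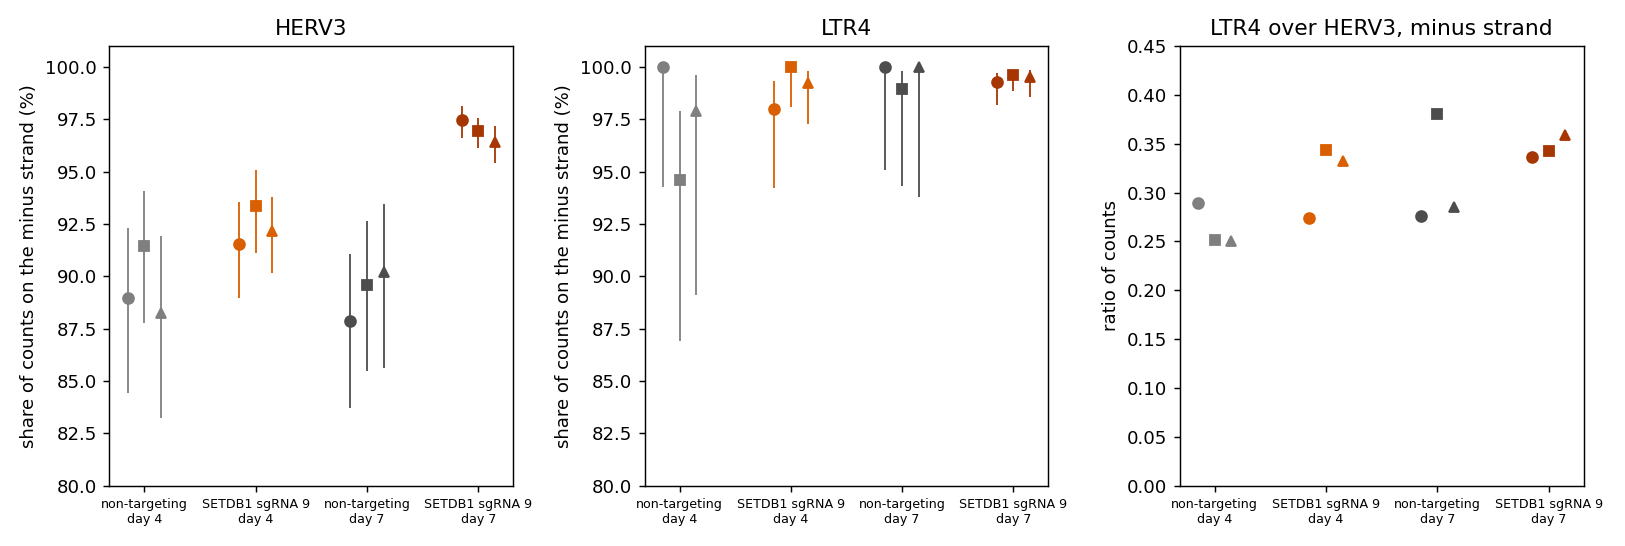
Share of HERV3 and of LTR4 counts on the minus strand (percent, axis not from 0, bars are 95% Wilson intervals for counting error) and ratio of LTR4 to HERV3 minus strand counts, by library. The HERV3 share is over 96% in the 3 SETDB1 libraries of day 7, and the ratio lies between 0.250 and 0.380 in all 12 libraries.

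Together, the 4 features held 1.04% ± 0.24 and 1.74% ± 0.18 of the table counts in non-targeting and SETDB1 libraries at day 4, and 1.00% ± 0.10 and 5.18% ± 0.72 at day 7 (SD, n = 3). Their mean sum went from 346 ± 54 to 2549 ± 388 counts at day 7. The difference made up 14.6% of the difference between the arms in mean table total at that day, against 2.85% at day 4. Both differences are in raw counts, not corrected for sequencing depth. Neither percentage therefore measures a share of a gain in repeat RNA.

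The other elements of retroviral or LTR type gave 25 tested features of 36. At day 7, 6 were called higher and 11 lower with a median log2 change of 0.09, beside 21 and 18 (25.7%) of all 70 features with a median of 0.16. At day 4 the counts were 1 and 6 with a median of -0.08, beside 11 and 6 (8.57%) of all features with a median of 0.04. The split depended on the scaling. In unscaled counts the list had 10 higher and 0 lower at day 4 and 11 and 1 at day 7, and with HERV3 and LTR4 left out of scaling 1 and 7 at day 4 and 2 and 11 at day 7. Over all features the day 7 calls were 37 higher and 1 lower in unscaled counts and 11 and 20 with HERV3 and LTR4 left out of scaling, and the day 4 calls were 8 and 9 with table totals. Without SETDB1 sgRNA 9 day 4 replicate 3 the list had 2 lower calls at day 4. The higher calls at day 7 also depended on single libraries. They were 2 when the library left out was replicate 2 of the controls of day 4, or, of day 7, replicate 2 of the SETDB1 arm or replicate 3 of the control arm. They were 4 when it was replicate 3 of the SETDB1 arm or replicate 1 of the control arm, both of day 7.

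Among the other internal retrovirus models, minus strand changes at day 7 ran from below 0 to slightly above it. Since what the minus columns refer to is unknown, minus strands of different families may not correspond. HERVK, a class II family, changed by 0.37 ± 0.15 and HERVP71A by 0.33 ± 0.14, just past the threshold (log2, SE; edgeR adjusted p = 0.0321 and 0.0396). HERVK stayed called in 10 and HERVP71A in 9 of 21 alternative fits, with changes down to 0.14 and 0.11 when HERV3 and LTR4 were left out of scaling. Both calls were lost without non-targeting day 4 replicate 2, without SETDB1 sgRNA 9 day 7 replicates 2 or 3 and without non-targeting day 7 replicate 3. HERVK also lost its call without non-targeting day 7 replicate 2, and HERVP71A without replicate 1 of either arm at day 7. HUERS-P3b fell by 0.84 ± 0.14 and LTR23-int by 0.83 ± 0.21 (edgeR adjusted p = 4.21e-06 and 0.00119). Both missed the threshold in unscaled counts alone, at -0.24 and -0.23. HERVL18 minus strand was too low to be tested, and HERV-Fc1 had 0 minus strand counts in 12 libraries. Of the plus strands of these models, only those of HERVK and HERVL18 are described. That of HERVK, picked by its correlation with HERV3 minus strand, stood higher with the SETDB1 guide at day 7. Its levels were 773 ± 112 CPM in non-targeting and 1398 ± 63 CPM in SETDB1 libraries (SD, n = 3). The largest changes of the list were in HERVL18 plus strand (1.86 ± 0.49) and in the minus strands of LTR26 (-1.30 ± 0.21), MER34C (-1.25 ± 0.35), MLT2B5 (-1.01 ± 0.21) and MLT1E1 (-0.87 ± 0.24; log2, SE). Of these, MER34C, MLT2B5 and MLT1E1 were not called in unscaled counts. HERVL18 plus strand held only 97 counts in all 12 libraries. It stood at 147 ± 42 CPM in non-targeting and 158 ± 41 CPM in SETDB1 libraries at day 4. At day 7 the levels were 86 ± 37 and 333 ± 14 CPM (SD, n = 3). It passed the filter on low counts only through the SETDB1 libraries of day 7, so its change is a description. HERV3 and LTR4 minus strands, at 2.35 and 2.48, were at rank 3 and rank 2 of 70 by log2 change at day 7, and their difference from these families was not tested because of how they were chosen.

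**Figure D5:**
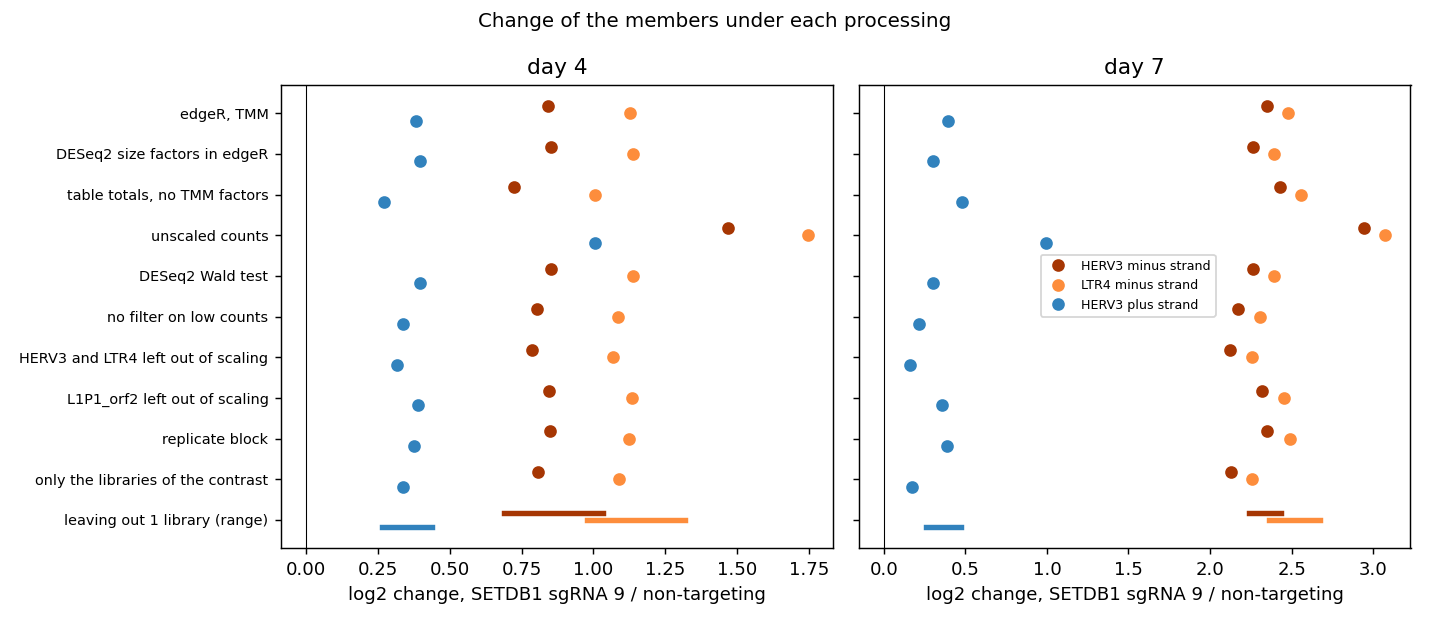
Log2 change of the 3 tested members with SETDB1 sgRNA 9 at day 4 and day 7 under each processing, and its range when 1 of the 12 libraries is left out. The minus strands stay between 0.69 and 1.75 at day 4 and between 2.13 and 3.08 at day 7, and HERV3 plus strand stays above 0 throughout.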

How the data were processed

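Stranded total RNA libraries were made from 100 ng of RNA, per the labels' protocols. The authors deposited raw counts, whole numbers for each element and strand, in 1 table a day. The submitters' processing notes list CASAVA 1.8, BWA and HTSeq but not what each did. Not given in the sources used here are the genome build, the repeat models, the choice of the 45 elements and the handling of reads that map to several copies. Copies of HERV3 and of LTR4 share sequence, so their counts are uncertain to that extent. All 24 count columns were matched by the sample description in the header (0 columns belonged to other samples).

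The plus and minus column of an element made a feature each. edgeR 4.0.16 (R 4.3.3) kept 70 of 90 features (filterByExpr, minimum count 10, minimum total 15); the 20 others held 0.121% of the counts. Library sizes were table totals with TMM factors, and all 12 libraries entered 1 quasi-likelihood fit with 4 groups. The threshold was an adjusted p of 0.05, and the SE was taken from the F statistic. No pair of libraries was treated as a duplicate, since all 12 pairs of the same group differed beyond sampling noise (chi-square over degrees of freedom 1.75 to 15.4, largest p = 9.82e-05). The fit was tested on simulated data. Alternatives were 9 other fits, among them DESeq2 1.42.0, and leaving out each of the 12 libraries.

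Members and lists were chosen with earlier results of these data known. Named features are the 4 members, every other internal model, the 5 largest called changes of the other LTR list at day 7, and the 5 features most correlated with HERV3 minus strand. Of the fixed marker lists, monocyte, T cell, B cell and erythroid, 0 genes were in the tables. Start windows are from RefSeq (GRCh38.p14), searched with blastn 2.17.0.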

Additional observations from a re-analysis of the deposited data

Results flagged for a closer look

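The effect of SETDB1 sgRNA 9 differed between the days for both minus strands. For HERV3 it was larger at day 7 than at day 4 by 1.504 ± 0.208 on the log2 scale, and for LTR4 by 1.349 ± 0.261 (SE). Both passed the threshold of the edgeR interaction test over 70 features, but the family was chosen with this difference known, so that is no independent evidence. Within the SETDB1 cells, all 3 libraries of day 7 lay above all 3 of day 4 for both, as for 20% of all features in CPM. HERV3 plus strand showed 0.01 ± 0.30 in the interaction. Over all 70 features there were 4 calls, which became 9 without SETDB1 sgRNA 9 day 4 replicate 1 and 8 without non-targeting day 4 replicate 2.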

How the results depend on the processing

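HERV3 and LTR4 minus strands were above 0 and called at both days, in the interaction and between days in SETDB1 cells under all alternatives run. Over all features the main fit called 15.7% higher at day 4, 30% at day 7, 2.86% in the interaction and 11.4% between days in SETDB1 cells. The alternatives reuse the libraries on which the family was picked, so nothing is read from these member calls. No member was called between days in non-targeting cells. HERV3 plus strand was above 0 in all 21 at each day, and called in unscaled counts at both days and with table totals at day 7. LTR4 plus strand was fitted only without the filter. Of 649 values under alternatives, 579 stayed within the replicate spread, 1.5 times the count or the side of the threshold. A further 42 moved and 28 of other LTR features lost their call. Reversal was looked for only in called changes and in share or ratio changes beyond the replicate spread, with 0 found. Uncalled values did change sign. HERV3 plus strand was above 0 in 9 of 20 fits of the interaction and in 18 of 21 between days in either arm. HERV3 minus strand was above 0 in 7 of 21 between days in non-targeting cells. Calls were compared by total alone, so the changed split at day 7 in unscaled counts counted as staying.

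Unscaled counts gave 1.47, 1.01 and 1.75 for HERV3 minus, HERV3 plus and LTR4 minus strand at day 4, and 2.94, 1.00 and 3.08 at day 7 (log2), with 35 calls at day 4 and 0 between days in non-targeting cells. Without the filter HERV3 was 2.17 (minus) and 0.22 (plus) at day 7, and -0.12 (plus) in the interaction, which had 8 calls. With HERV3 and LTR4 left out of scaling these were 2.13, 0.16, -0.15 and 8, HERV3 plus strand was -0.085 between days in SETDB1 cells, and calls between days were 2 (non-targeting) and 24 (SETDB1). A fit of only the libraries of the contrast gave 2.13 and 0.17 for HERV3 at day 7 and 10 calls at day 4. The interaction had 8 calls with DESeq2 size factors, 9 with table totals (HERV3 plus strand 0.21) and 10 with DESeq2, which called 9 (non-targeting) and 14 (SETDB1) between days. The cause of these shifts was not tested.

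Leaving out 1 library gave 10 to 18 calls at day 4, 28 to 41 at day 7, 3 to 9 in the interaction, 0 to 4 between days in non-targeting and 7 to 24 in SETDB1 cells. HERV3 minus strand then lay between 1.21 and 1.67 in the interaction, and HERV3 plus strand between 0.26 and 0.48 at day 7, -0.14 and 0.13 in the interaction and -0.076 and 0.21 between days in SETDB1 cells.

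Same-numbered libraries of the arms showed no steady common deviation (correlations -0.13 to 0.28, over 0.1 in 2 of 6 pairs), so replicate numbers were not taken as pairs. The highest value, 0.28, was that of replicate 2 at day 7, and so few libraries cannot show that pairing is absent. With the replicate number as a block there were 18 calls at day 4, 41 at day 7 and 5 in the interaction, and HERV3 minus strand was 0.85 and 2.35. Depth limits the plus strands: HERV3 plus strand rests on 22 to 69 counts per library.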

Other observations

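The features most like HERV3 minus strand over the 12 libraries, by Pearson correlation of log2 CPM, were LTR4 minus strand (0.990) and, outside the family, SST1 plus strand (0.90) and minus strand (0.875), L1PBa1_5end minus strand (0.854), HERVK plus strand (0.822) and L1PBb_5end plus strand (0.820). These are descriptions over libraries that share their scaling and fall into 4 groups. SST1 is a satellite repeat. Its plus strand was at 637 ± 124 and 7697 ± 166 CPM in non-targeting and SETDB1 cells at day 4 and at 779 ± 72 and 14642 ± 3194 CPM at day 7, and its minus strand at 2208 ± 647 and 2838 ± 316 CPM at day 4 and at 2278 ± 683 and 4196 ± 560 CPM at day 7 (SD, n = 3). L1PBa1_5end, a 5′ end model of the LINE L1, was at 2283 ± 544 and 2460 ± 155 CPM at day 4 and at 2277 ± 233 and 3150 ± 77 CPM at day 7 on the minus strand (SD, n = 3). HERVK plus strand was at 894 ± 219 and 944 ± 53 CPM at day 4 and at 773 ± 112 and 1398 ± 63 CPM at day 7 (SD, n = 3). L1PBb_5end plus strand was at 235 ± 137 and 273 ± 44 CPM at day 4 and at 195 ± 32 and 491 ± 202 CPM at day 7 (SD, n = 3). Its correlation thus rests on low levels with a wide spread.

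Of all features, L1P1_orf2 on the minus strand took the most counts. It was at 269494 ± 23167 CPM in non-targeting and 333421 ± 53875 CPM in SETDB1 cells at day 4, and at 292804 ± 33706 CPM in non-targeting and 275613 ± 15863 CPM in SETDB1 cells at day 7 (SD, n = 3).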
